A study of Homo sapiens with 60 samples.

Results

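The genes described here are those that build, cross-link, cut and protect the extracellular matrix: the collagens, the lysyl oxidases and lysyl hydroxylases that modify them, the matrix metalloproteinases, the tissue inhibitors of metalloproteinases, and 11 further matrix proteins (SPARC, MGP, DCN, LUM, BGN, FBN1, FBN2, FBLN1, NID1, NID2 and POSTN). They were chosen by their gene symbols alone, and 88 of the 19775 genes with a value on the arrays met that choice. COL17A1 and MMP23 were not analysed here. RNA was measured on 60 Affymetrix U133 Plus 2 arrays in 12 groups of 5, from 3 breast cell lines under 4 conditions. HB4a is labelled as a line from normal breast epithelium. C5.2, written C5.2a in some labels, is HB4a transfected with the full-length HER-2 cDNA, and SKBR3 is a mammary adenocarcinoma line that overexpresses HER-2. Each line received vehicle (DMSO), 30 nM doxorubicin, 20 nM rapamycin, or both drugs together, called combined below. The groups follow the source names of the arrays. Titles of the vehicle arrays carry the letters DRC, given elsewhere in the labels to both drugs together, so every difference from vehicle rests on the source names being right. Doxorubicin damages DNA and blocks topoisomerase II, and rapamycin inhibits the kinase complex mTORC1. Each condition was run in 5 independent experiments, numbered 1, 2, 3, 4 and 6, and the length of treatment is not given in the sources used here. HB4a and C5.2 were grown with insulin and hydrocortisone, which the medium of SKBR3 did not have, so line and medium cannot be told apart. C5.2 is the 1 transfected line here, so the transfected cDNA and other changes in that line cannot be told apart either.

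Collagens are trimers assembled inside the cell, hydroxylated by PLOD and prolyl hydroxylase enzymes, secreted, and then cross-linked outside the cell by lysyl oxidases. Fibrillar collagens form the fibres of connective tissue, while type IV collagens and nidogens form the sheet-like basement membrane on which breast epithelium rests. Matrix metalloproteinases cut these proteins and TIMPs inhibit the metalloproteinases. Mesenchymal cells such as fibroblasts make most fibrillar collagen, and epithelial cells contribute to the basement membrane.

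Sequences upstream of 4 places are shown because the genes beside them carry the treatment results below: COL7A1 and COL27A1 were the collagens called higher with doxorubicin in C5.2, PLOD2 was the enzyme lower with rapamycin in SKBR3 where genes down to log2 3 were tested, and COL4A1 and COL4A2 lie head to head. Each is from RefSeq, build GRCh38.p14, and 60 of the 88 genes had an entry among the 27305 promoters used. For COL7A1 (chr3:48595330-48595579, minus strand) and COL27A1 (chr9:114155287-114155536, plus strand), capitals mark the GC box GGGCGG on either strand, which the factor SP1 can bind. For PLOD2 (chr3:146161185-146161434, minus strand), capitals mark ACGTG or GCGTG on either strand, the core letters that hypoxia-inducible factors can bind. The COL4A1 gene (minus strand) and the COL4A2 gene (plus strand) start 126 bases apart, and the stretch between them is chr13:110307158-110307283, shown on the plus strand with GGGCGG and CCAAT in capitals. None of the matches shown in capitals overlap.
COL7A1: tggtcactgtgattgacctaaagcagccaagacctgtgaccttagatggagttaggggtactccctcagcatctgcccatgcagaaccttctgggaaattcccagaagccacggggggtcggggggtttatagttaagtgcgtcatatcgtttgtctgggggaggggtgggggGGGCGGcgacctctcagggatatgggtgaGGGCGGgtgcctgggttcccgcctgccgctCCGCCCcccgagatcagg
COL27A1: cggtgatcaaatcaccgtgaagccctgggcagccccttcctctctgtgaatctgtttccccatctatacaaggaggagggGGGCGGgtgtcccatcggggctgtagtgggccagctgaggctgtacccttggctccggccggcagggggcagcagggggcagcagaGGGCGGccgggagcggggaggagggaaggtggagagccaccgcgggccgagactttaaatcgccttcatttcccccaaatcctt
PLOD2: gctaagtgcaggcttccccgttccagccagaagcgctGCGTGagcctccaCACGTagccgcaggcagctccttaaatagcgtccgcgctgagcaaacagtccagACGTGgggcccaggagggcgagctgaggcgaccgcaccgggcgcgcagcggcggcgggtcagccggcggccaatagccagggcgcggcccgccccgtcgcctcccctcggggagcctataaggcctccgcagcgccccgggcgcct
COL4A1-COL4A2: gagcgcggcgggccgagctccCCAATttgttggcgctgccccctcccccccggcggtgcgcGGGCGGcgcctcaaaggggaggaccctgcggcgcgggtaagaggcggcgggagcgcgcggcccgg
GGGCGG occurred 3 times upstream of COL7A1, 2 times upstream of COL27A1 and 1 time between COL4A1 and COL4A2. It occurs in 41.6% of all 250-base promoters and in 60% of those of the matrix genes; the stretch between COL4A1 and COL4A2 is shorter, and no share was computed for its length. PLOD2 held 2 matches of ACGTG, found in 18.5% of all 250-base promoters and 23.3% of those of the matrix genes, and 1 of GCGTG, found in 31.6% and 31.7%. CCAAT occurred 1 time between COL4A1 and COL4A2 and is in 32.9% of all 250-base promoters. The stretch between COL4A1 and COL4A2 is 80.2% G and C with 20 CpG sites. A match is a description of the letters and not evidence of binding.

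ERBB2, the gene for HER-2, was 6.67 ± 0.23 (SD, n = 5) in HB4a vehicle, 12.06 ± 0.25 in C5.2 and 11.48 ± 0.35 in SKBR3 on the deposited log2 scale. Epithelial markers were present in HB4a, where CDH1 was 9.27, KRT5 10.07 and KRT18 11.65. In C5.2, CDH1 was 5.57 and KRT5 7.01, while the mesenchymal markers VIM and S100A4 were 11.04 and 10.36 against 8.55 and 5.73 in HB4a. All 6 epithelial markers tested were lower in C5.2 than in HB4a, and 5 of 7 mesenchymal markers were higher and 1, FN1, was lower. SKBR3 had KRT18 at 11.72 and EPCAM at 9.61, but KRT5 was 1.79, close to the medians of the arrays, and CDH1 was 0.25 to 0.60 on 4 vehicle arrays and 5.06 on array 3. S100A4 was also high in SKBR3, at 10.20 to 10.51 on the vehicle arrays, so it does not set C5.2 apart from SKBR3. VIM was low there, at 2.04 to 2.36 on 4 vehicle arrays and 3.95 on array 3. The leukocyte markers PTPRC and LYZ lay between 0.31 and 0.63 in vehicle in every line. CD14 was 4.49 in C5.2, 2.48 in HB4a and 0.76 in SKBR3, and CD3E lay between 2.03 and 2.53 in all 3. Of the endothelial markers KDR was 4.37 in C5.2, 2.58 in HB4a and 0.24 in SKBR3, and CDH5 0.49, 2.39 and 2.16. PECAM1 was 2.96 in C5.2 and 3.11 in HB4a, VWF 1.55 and 1.70, and TEK 2.06 and 1.93. These marker differences move with line, and their part in the results was not tested. Array medians ranged from 1.41 to 1.71, and a group is called at background for a gene where at least 2 of its arrays lie at or under their own array's median. The arrays of number 1 in HB4a and SKBR3, number 2 in C5.2 and rapamycin array 4 of HB4a were taken as standing apart. An alternative fit below leaves them out. They did not deviate most in every group. In SKBR3 combined the SD of the deviations from the group means over the genes tested was 0.25 on array 1. It was 0.35 on array 4, which was kept.

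Most of the matrix genes were not expressed at a level these arrays measure well. Of the 88, 38 passed a log2 value of 5 on at least 5 arrays of a line, the condition for being tested, 30 lay at background in all 12 groups, and the other 20 lay between, with highest values from 2.19 to 5.09. C5.2 had the most genes above that level, 31, followed by HB4a with 26, and SKBR3 had 7. The fraction of genes at background differed by role: 10 of 16 secreted metalloproteinases were at background in every group, namely the collagenases MMP1, MMP8 and MMP13, the stromelysins MMP3 and MMP10, and MMP12, MMP20, MMP21, MMP26 and MMP27. MMP1 was 0.23 in HB4a vehicle, 0.53 in C5.2 and 0.01 in SKBR3. So were 4 of 11 fibrillar collagens (COL1A2, COL2A1, COL11A1 and COL24A1), 5 of 10 fibril-associated collagens (COL9A1, COL14A1, COL19A1, COL21A1 and COL22A1) and 5 of 11 of the beaded filament, network and anchoring collagens (COL6A3, COL6A5, COL6A6, COL10A1 and COL28A1). COL4A3 was the 1 of 10 basement membrane genes at background, 0 of 8 enzymes were, and COL25A1, MMP16 and TIMP4 completed the 30 with LUM and POSTN. COL1A2, a chain of type I collagen, was at background in all 12 groups, with group means from 0.93 to 1.24. COL1A1, the other chain, had group means from 4.02 to 4.46 on the probe set with its highest mean over all arrays and was not tested. Another probe set of COL1A1 was 5.70 in HB4a vehicle, 4.73 in C5.2 and 3.59 in SKBR3. The 20 genes between were COL1A1, COL4A4, COL5A3, COL8A2, COL9A2, COL9A3, COL11A2, COL13A1, COL15A1, COL16A1, COL20A1, COL23A1, COL26A1, LOXL4, MMP11, MMP17, MMP19, MMP24, MMP25 and MMP28. The 5 genes that passed in all 3 lines were PLOD1, PLOD3, TIMP1, TIMP2 and FBLN1, and 15 passed in HB4a and C5.2 but not SKBR3. The 10 that passed only in C5.2 were BGN, COL3A1, COL5A2, COL6A2, COL7A1, COL18A1, COL27A1, FBN1, MGP and MMP2. The 6 that passed only in HB4a were COL8A1, LOX, LOXL3, MMP7, MMP9 and PLOD2, and MMP15 was the 1 that passed only in SKBR3.

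**Figure D1:**
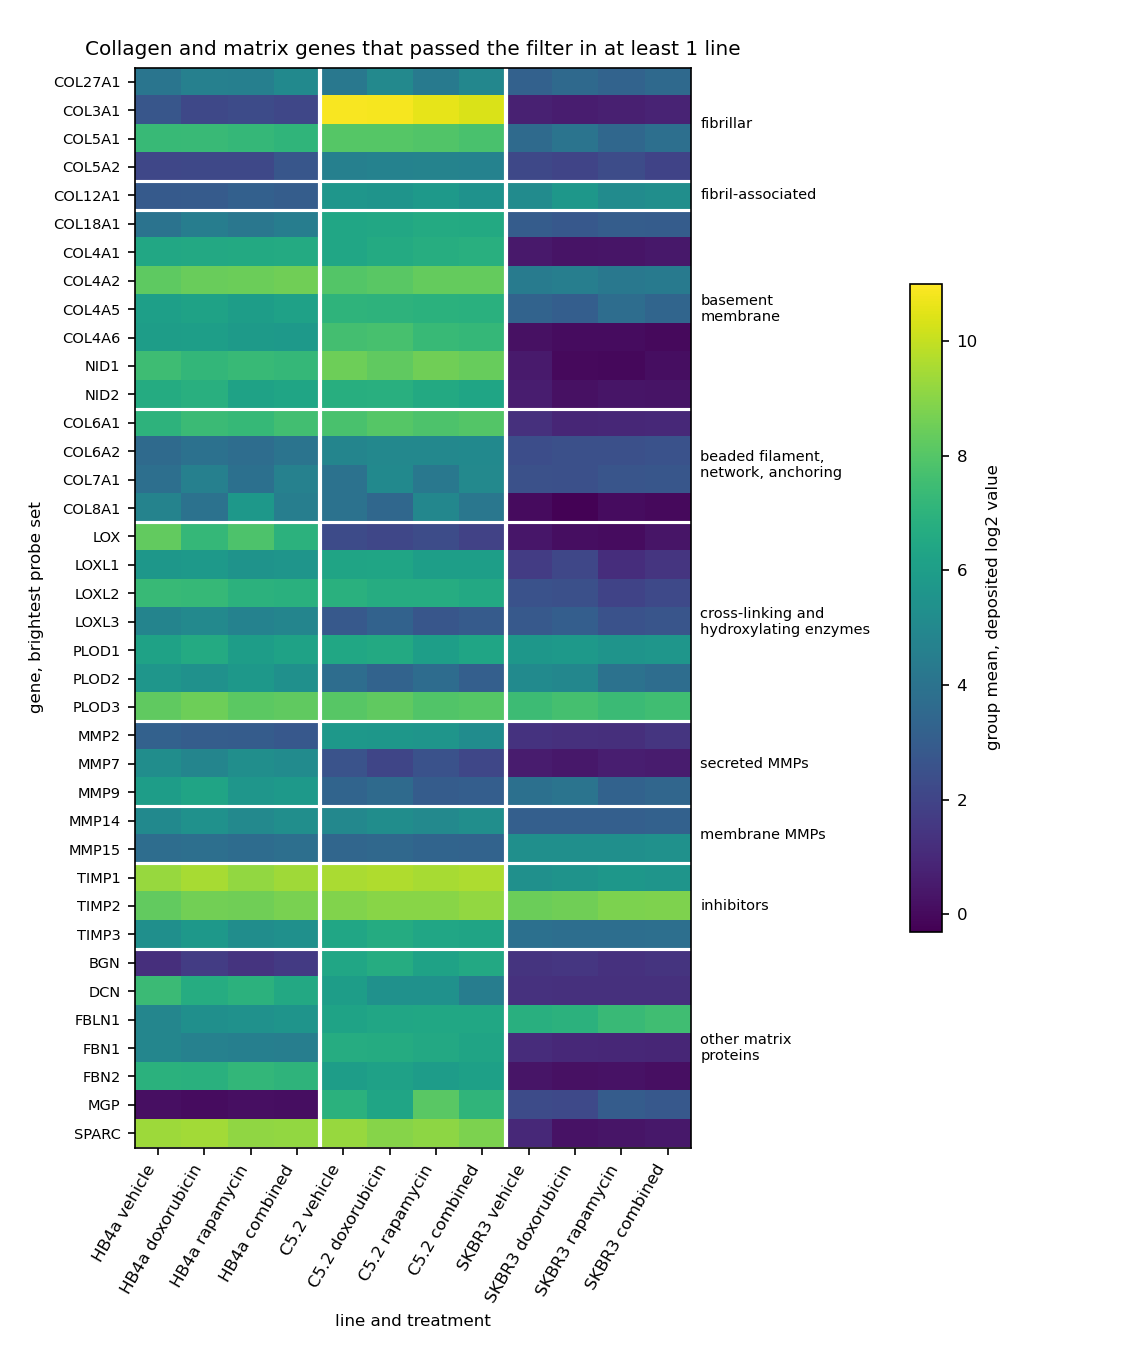
Group means of the 38 matrix genes that passed the filter in at least 1 line, as deposited log2 values of the brightest probe set (colour), for the 12 groups of 5 arrays (columns) with genes ordered by role (rows). The columns of SKBR3 are dark for most collagens and bright for TIMP2, PLOD3 and FBLN1, and colours within a line change little between treatments.

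C5.2 and HB4a, which share their origin, differed in 27 of the 37 matrix genes tested in vehicle: 19 were higher and 8 lower in C5.2 (limma, at an adjusted p under 0.05 by Benjamini and Hochberg, where 49.2% of the 6962 genes tested were called). Of the 37, 20 passed the filter in both lines, and of these 10 were higher and 3 lower in C5.2. Another 11 passed only through C5.2 and 6 only through HB4a, so the direction of any call among these was largely set by the filter. Of the 11, 9 were called higher in C5.2, and of the 6, 5 were called lower. With the experiment number as a block, 19 were higher and 10 lower (58.2% of all genes). In bulk cultures fewer cells that express a gene and less RNA per cell cannot be told apart. By role, 3 of 4 fibrillar collagens, 4 of 7 basement membrane genes and all 3 inhibitors tested were higher in C5.2, with none lower. Of 7 enzymes 1 was higher and 4 lower. Among the lower enzymes LOX, LOXL3 and PLOD2 passed only through HB4a. Among the higher genes COL3A1, COL5A2 and COL18A1 passed only through C5.2. The filter thus set much of this split, and it is not read as a difference between roles.

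COL3A1, the type III fibrillar collagen of extensible tissue, had the largest measured difference. On arrays 1, 2, 3, 4 and 6 it was 2.79, 2.57, 2.69, 3.16 and 2.51 in HB4a vehicle and 10.58, 10.67, 11.11, 11.18 and 10.98 in C5.2 vehicle. Every C5.2 array lay far above every HB4a array. The difference was 8.16 (SE 0.15, adjusted p = 1.59e-33, limma) on its brightest probe set, and 2 of its other 4 probe sets both gave 8.44. The remaining 2 were dim in both lines, at 1.21 or less, and gave 0.20 and 0.85. COL5A2, a chain of type V collagen that joins heterotypic fibrils, was 2.52 higher (SE 0.25), and COL5A1, its partner chain, 0.69 higher (SE 0.20). COL5A1 was 7.10, 7.28, 7.17, 7.46 and 7.57 in HB4a and 7.36, 7.76, 8.26, 8.36 and 8.30 in C5.2, so the groups overlapped. COL12A1, a fibril-associated collagen, was 2.90 ± 0.44 in HB4a and 5.65 ± 0.41 in C5.2, a difference of 2.75 (SE 0.29). Of the remaining fibrillar collagens, COL27A1 differed by 0.17 (SE 0.17, adjusted p = 0.423, limma) and COL1A1 and COL1A2 were not tested.

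Among basement membrane genes, COL18A1, the source of endostatin, was 3.66, 4.01, 3.98, 4.27 and 4.14 in HB4a and 5.84, 6.38, 6.34, 6.75 and 6.64 in C5.2. Its groups did not overlap and it was 2.38 higher (SE 0.17) in C5.2. The other COL18A1 probe set, at 5.30 in C5.2 and 4.55 in HB4a, differed by only 0.75. The mean of its probe sets was 1.56 higher (SE 0.15). COL4A6 was 1.64 higher (SE 0.14) and its neighbour in the type IV family COL4A5 was 0.97 higher (SE 0.22). NID1, which links laminin to type IV collagen, was 1.02 higher (SE 0.17). The head-to-head genes COL4A1 and COL4A2, whose shared upstream stretch is printed above, were not called on their brightest probe sets. COL4A1 was 6.48 ± 0.09 in HB4a and 6.39 ± 0.42 in C5.2, and COL4A2 8.19 ± 0.24 and 7.97 ± 0.47. The dimmer probe set of COL4A2 differed by -0.74, and the mean of its probe sets was called lower in C5.2 (-0.48, SE 0.17, adjusted p = 0.0211, limma). Of the beaded filament collagens, COL6A1 was 0.76 higher (SE 0.13) and COL6A2 1.24 higher (SE 0.18). The other probe sets of COL6A1, all dimmer, differed by 0.80, 0.59, 0.12, -0.05, -0.16, -0.50 and -0.71.

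Among the enzymes lower in C5.2, LOX, LOXL3 and PLOD2 passed the filter only through HB4a. LOX, the lysyl oxidase that starts collagen and elastin cross-linking, was 7.76, 7.5, 8.63, 8.53 and 8.91 in HB4a vehicle and 1.94, 2.11, 2.43, 2.37 and 2.53 in C5.2. No C5.2 array came near the HB4a range. The difference was -5.99 (SE 0.26, adjusted p = 1.29e-21, limma), and -4.51 and -2.55 on its other 2 probe sets. LOXL3 (-1.94) and LOXL2 (-0.46) were also lower in C5.2, but LOXL1 was 0.63 higher. PLOD2, which hydroxylates the telopeptide lysines used in cross-links, was 5.65 ± 0.50 in HB4a and 3.76 ± 0.40 in C5.2. PLOD1 and PLOD3, the other lysyl hydroxylases, were not called, at 0.22 (SE 0.15) and -0.20 (SE 0.11). The LOXL2 call ended without C5.2 vehicle array 1 (adjusted p = 0.0507, limma). On its other probe sets, all dimmer, LOXL2 differed by 0.00, 0.34 and -0.19.

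Of the metalloproteinases tested, MMP2 passed the filter only through C5.2, and MMP7 and MMP9 only through HB4a. MMP2, gelatinase A, was 3.58, 3.21, 3.07, 3.29 and 2.97 in HB4a and 5.41, 6.15, 5.86, 5.47 and 5.68 in C5.2. It was 2.49 higher in C5.2 (SE 0.18), with no overlap. MMP9, gelatinase B, was 5.65, 6.45, 5.84, 6.03 and 6.03 in HB4a and 3.25, 3.74, 3.09, 3.07 and 3.44 in C5.2, a difference of -2.68 (SE 0.22). MMP7, matrilysin, which epithelial cells make, was lower by 2.65 (SE 0.21). The gelatinases differed in opposite directions, each without overlap of the arrays. The filter largely set these directions, so they are not read as a contrast between the genes. MMP14, a membrane-anchored activator of MMP2, was 5.07 ± 0.13 and 4.97 ± 0.23 and was not called. TIMP1 was higher in C5.2 by 0.30 (SE 0.12), TIMP2 by 0.57 (SE 0.13) and TIMP3 by 1.05 (SE 0.16). The TIMP1 call ended in 6 of 10 fits that each left out 1 vehicle array, namely without HB4a array 1, 3 or 4 or C5.2 array 2, 3 or 6, with adjusted p up to 0.0952 (limma), and under quantile normalization. TIMP2 differed by -0.04 on the dimmest of its 3 probe sets, and TIMP3 by 2.64, 1.66 and 2.97 on its other 3.

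Of the other matrix proteins, 4 of 7 were higher and 2 lower (49.2% of all genes tested were called). MGP, BGN and FBN1 passed the filter only through C5.2, so their direction was largely set by the filter. MGP, an inhibitor of calcification, was 0.38, 0.13, 0.24, 0.17 and -0.12 in HB4a, at background, and 6.04, 5.43, 7.73, 7.62 and 7.83 in C5.2. Arrays 1 and 2 of C5.2 lay lower than arrays 3, 4 and 6. Because HB4a was at background the difference is a bound, at least 5.26 on the log2 scale. BGN (biglycan), a small proteoglycan that binds collagen, was likewise at background in HB4a, between 0.91 and 1.51, and between 5.65 and 6.75 in C5.2, at least 4.71 higher. On the other probe sets of BGN the difference was 4.39 and 0.07, the latter at 2.52 in C5.2 and 2.45 in HB4a. DCN (decorin), a close relative of BGN, passed in both lines and was lower in C5.2. It was 7.69, 6.32, 7.82, 7.33 and 7.93 in HB4a and 5.95, 5.85, 5.86, 5.64 and 6.72 in C5.2, a difference of -1.41 (SE 0.30). Of the fibrillins, FBN1 was 1.81 higher (SE 0.33), and FBN2, which passed in both lines, was at -0.92 (SE 0.29). FBLN1 was 1.33 higher (SE 0.24), and SPARC, a collagen-binding glycoprotein, was 9.33 ± 0.22 and 9.24 ± 0.18 and was not called.

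**Figure D2:**
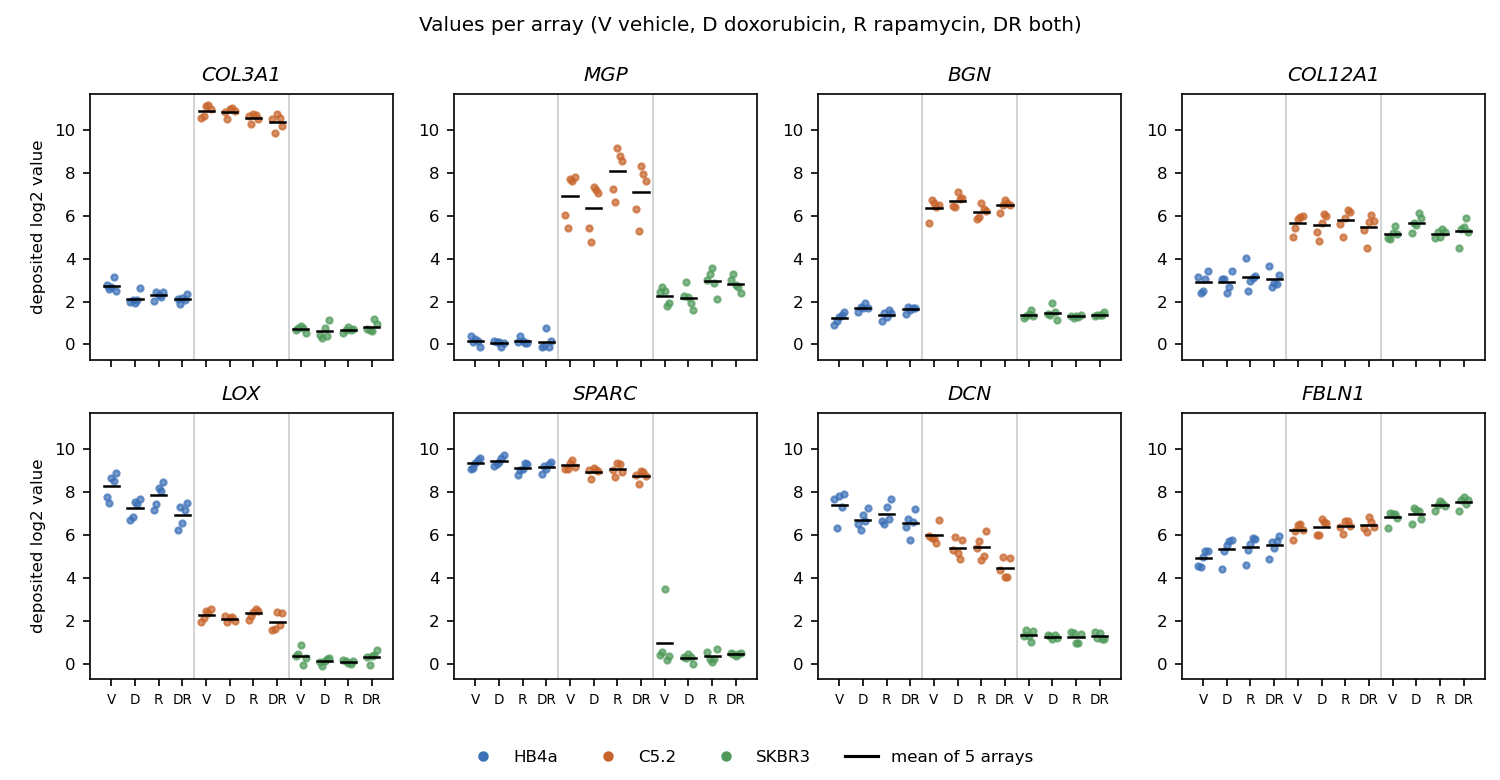
Deposited log2 values of 8 matrix genes on each of the 60 arrays (points) with the mean of 5 arrays (bars), by line and condition. COL3A1, MGP and BGN are high only in the C5.2 columns among the lines plotted, LOX only in HB4a, while SPARC and DCN are low in SKBR3 and not in the other lines. In SKBR3 the SPARC point at 3.46 is vehicle array 3.

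Of the 88 matrix genes, 48 lay at background in all 4 groups of SKBR3, against 35 in HB4a and 31 in C5.2. In vehicle 28 were tested between SKBR3 and HB4a, and 23 were lower and 3 higher in SKBR3 (limma, 77.3% of all genes tested were called in this comparison). Of the 28, 21 passed the filter only through HB4a and 2 only through SKBR3, so the direction of most calls was set by which genes could be tested. The 5 that passed in both lines were PLOD1, PLOD3, TIMP1, TIMP2 and FBLN1, with 1 higher and 3 lower in SKBR3. Of the lower genes, SPARC, LOX, DCN, NID1, FBN2, COL6A1, NID2, COL4A1, COL4A6, MMP7 and COL8A1 lay at background in SKBR3 vehicle, so their differences are lower bounds on the size. SPARC was at least 7.44 lower, LOX at least 6.77, DCN at least 5.91, NID1 at least 5.82 and FBN2 at least 5.43 on the log2 scale.

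SPARC on arrays 1, 2, 3, 4 and 6 was 9.09, 9.13, 9.35, 9.52 and 9.57 in HB4a vehicle and 0.40, 0.54, 3.46, 0.15 and 0.37 in SKBR3 vehicle. Array 3 of SKBR3 stood above the other 4 but far below HB4a. COL4A1 showed the same arrangement, at 0.13, 0.11, 1.5, 0.29 and 0.22 in SKBR3 against 6.39 to 6.59 in HB4a, and was at least 4.98 lower. COL4A2 was not at background, at 4.01, 4.44, 5.21, 4.12 and 4.26, and was lower by 3.78 (SE 0.18, adjusted p = 1.00e-20, limma). Its dimmer probe set gave a difference of -0.93. Measured reductions also included LOXL2 at -4.78 (SE 0.26), LOXL1 at -3.96 (SE 0.21), TIMP1 at -3.87 (SE 0.13) and COL5A1 at -3.71 (SE 0.20).

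The 3 genes higher in SKBR3 than in HB4a were COL12A1, FBLN1 and MMP15. COL12A1 was 4.94, 4.93, 5.21, 5.53 and 5.14 in SKBR3 and 3.14, 2.39, 2.51, 3.04 and 3.44 in HB4a, a difference of 2.25 (SE 0.25). FBLN1 (fibulin-1) was 6.34, 7.0, 6.97, 7.0 and 6.78 in SKBR3 and 4.55, 4.52, 4.97, 5.24 and 5.27 in HB4a, 1.91 higher (SE 0.23). MMP15, a membrane-type metalloproteinase, was 4.75, 5.49, 5.32, 5.66 and 5.45 in SKBR3 and 3.37, 3.93, 3.82, 3.93 and 3.66 in HB4a, 1.59 higher (SE 0.20). Arrays of the lines did not overlap for any of these 3 genes. On the other 4 probe sets of FBLN1 the difference was 1.79, 0.55, -0.29 and -0.74. TIMP2 (0.19, SE 0.16) and PLOD2 (-0.55, SE 0.34) were not called, and the lysyl hydroxylases PLOD3 (-0.80) and PLOD1 (-0.52) were lower.

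Against C5.2, SKBR3 had 29 matrix genes lower and 2 higher of 32 tested (limma, 78.8% of all genes tested were called). Of the 32, 25 passed only through C5.2, all of them lower in SKBR3, and 6 passed in both lines, with 1 higher and 4 lower. COL3A1 was at least 9.41 lower, SPARC at least 7.34, NID1 at least 6.84, COL6A1 at least 6.14 and COL4A6 at least 6.12, each with SKBR3 at background. The genes higher in SKBR3 were MMP15 (1.91, SE 0.17) and FBLN1 (0.59, SE 0.17). COL12A1, higher than HB4a in both HER-2 lines, was 5.65 ± 0.41 in C5.2 and 5.15 ± 0.24 in SKBR3 and was not called between them (-0.50, SE 0.26, adjusted p = 0.0794, limma). The TIMP2 call (-0.38, SE 0.15) was lost in 3 of 10 fits that left out 1 vehicle array, without C5.2 array 4 or 6 or SKBR3 array 1, with adjusted p up to 0.141 (limma), and with the mean of all its probe sets.

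SKBR3 vehicle array 3 carried more signal for genes that are high in HB4a. Of 12 matrix genes above 5 in HB4a vehicle and under 3 on the other SKBR3 vehicle arrays, 9 were higher on array 3 than on every other SKBR3 vehicle array. The difference between array 3 and the mean of the other 4 had a median of 1.11 and ran from -0.03 to 3.10. SPARC was 3.46 on array 3 and 0.15 to 0.54 on the others, and NID1 2.30 against -0.13 to 0.24. DCN, LOXL1 and MMP7 did not stand out on array 3 in this way. Some markers stood out on the same array. FN1 was 8.83 on array 3 and 3.91 to 4.62 on the others, and CDH1 5.06 against 0.25 to 0.60. VIM was 3.95 against 2.04 to 2.36, SNAI2 1.65 against -0.06 to 0.14 and TWIST1 1.54 against 0.37 to 0.60. KRT18 and EPCAM lay within the range of the other 4, as did the mesenchymal markers CDH2, PDGFRA, PDGFRB, ZEB1 and FAP. THY1, also mesenchymal, was lower on array 3, at 2.09 against 2.27 to 2.47. This comparison was chosen after the values had been seen, and the source of the signal was not tested.

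**Figure D3:**
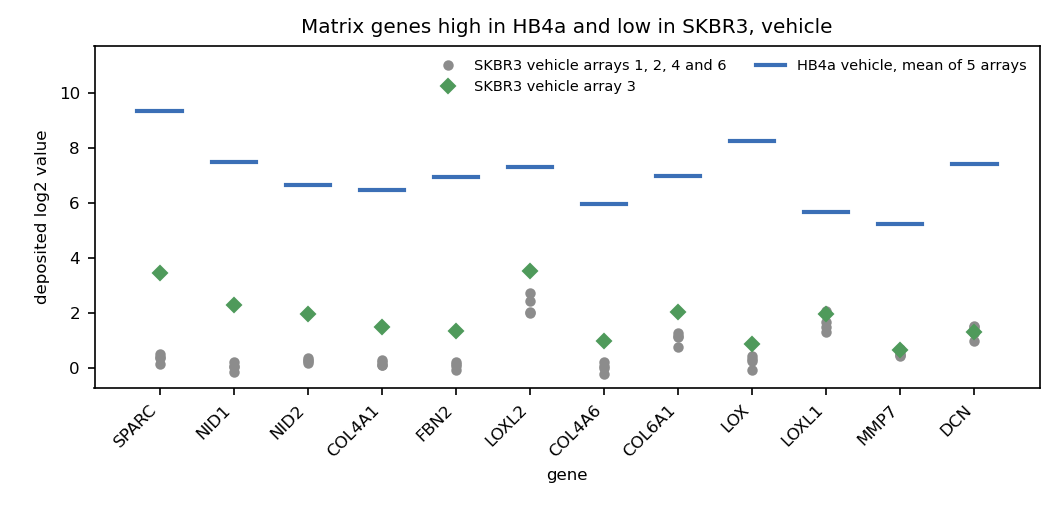
Deposited log2 values (y axis) of 12 matrix genes that were above 5 in HB4a vehicle and under 3 on SKBR3 vehicle arrays 1, 2, 4 and 6 (grey points), with SKBR3 vehicle array 3 (diamonds) and the HB4a vehicle mean of 5 arrays (bars). The diamond lies above the grey points for SPARC, NID1 and 7 other genes, and within them for DCN, LOXL1 and MMP7.

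For doxorubicin in HB4a few matrix genes were called without pairing, and more with the experiment number as a block, as given below. In the fit without pairing, 1 of the 26 tested was lower and 0 higher (limma, 11.4% of all 6167 genes tested were called). The median was 0.12 over the 26 and 0.06 over all genes, and 11 of the 26 had an unadjusted p under 0.05. The gene called was LOX, at 7.76, 7.5, 8.63, 8.53 and 8.91 in vehicle and 6.71, 6.84, 7.56, 7.42 and 7.69 with doxorubicin. The groups overlapped, but each doxorubicin array lay below the vehicle array of the same number. LOX fell by 1.02 (SE 0.30, adjusted p = 0.0312, limma). The call ended without vehicle array 3, 4 or 6 or doxorubicin array 1, 2 or 4, with adjusted p up to 0.0861 (limma), and without a filter (adjusted p = 0.0551). The count of matrix genes called ran from 0 to 4, with 2 without vehicle array 2 and 4 without doxorubicin array 1. KRT5 (-0.41), SNAI2 (-0.62) and TWIST1 (-0.51) fell in the same comparison, and their part was not tested.

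The arrays of this comparison paired by experiment number, since same-numbered arrays deviated together from their group means. With the number as a block 9 matrix genes were higher and 4 lower with doxorubicin (32.7% of all genes were called in that fit). The 4 lower genes were LOX (SE 0.17, adjusted p = 0.000208), COL8A1 at -0.82, DCN at -0.70 and NID1 at -0.30. The higher genes were FBLN1 at 0.43, COL6A1 at 0.42, PLOD1 and TIMP3 at 0.38, MMP14 at 0.37, TIMP2 at 0.34, PLOD3 at 0.28, and TIMP1 and COL4A2 at 0.25. FBLN1 passed the filter on 14 HB4a arrays, most of them treated, and its vehicle mean was 4.91. It was thus tested mainly through groups where it is high, and the direction of its call is not read. All 3 TIMPs tested were among the genes called higher in the paired fit (limma). MMP14 was 4.91, 5.25, 5.06, 5.01 and 5.11 in vehicle and 5.15, 5.58, 5.57, 5.2 and 5.67 with doxorubicin, higher in 5 of 5 numbers.

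Rapamycin in HB4a gave 0 calls of 26 without pairing (limma, 3.18% of all genes were called), with 2 at an unadjusted p under 0.05. The median was -0.09 over the 26 and 0.01 over all genes. With the number as a block 5 were higher and 3 lower (16.3% of all genes). COL8A1, a short-chain network collagen, was 5.28, 3.97, 4.57, 4.65 and 5.31 in vehicle and 6.79, 5.04, 5.33, 5.33 and 6.04 with rapamycin. The groups overlapped, yet the rapamycin array was higher in each of the 5 numbers, by 0.95 on average (SE 0.13, adjusted p = 9.24e-05, limma with the block, and SE 0.36, adjusted p = 0.19 without it). COL8A1 passed the filter on 8 HB4a arrays, all 5 rapamycin arrays among them. It was thus tested through the group where it is high, and the direction of the call is not read. With doxorubicin each array lay below its vehicle array, at 4.47, 3.46, 3.43, 3.70 and 4.64. In C5.2, where COL8A1 did not pass the filter, the order was the same in all 5 numbers: vehicle was 3.82, 2.98, 3.84, 4.47 and 4.78, doxorubicin 3.51, 2.43, 3.24, 3.96 and 4.33, and rapamycin 4.95, 3.41, 4.99, 5.49 and 5.90. The other genes called in the paired fit were FBLN1 at 0.52, TIMP2 at 0.30, COL6A1 at 0.29, COL4A2 at 0.27, MMP9 at -0.38, LOXL2 at -0.35 and SPARC at -0.22. FBLN1 passed the filter in HB4a mainly through treated arrays, so the direction of its call is not read here either. Among the markers KRT5 (-1.01) and KRT19 (-0.74) fell and FN1 (0.53) rose with rapamycin without pairing, and their part was not tested.

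The combined treatment changed 4 of 26 matrix genes in HB4a, with 2 higher and 2 lower (limma, 17.4% of all genes were called). The median was -0.04 over the 26 and 0.05 over all genes. LOX was 6.21, 7.33, 6.54, 7.18 and 7.48, and every combined array lay below the lowest vehicle array. LOX fell by 1.32 (SE 0.30, adjusted p = 0.00392, limma), and this call held whichever of the 10 arrays was left out. COL6A1 was 6.72, 7.13, 6.79, 7.18 and 7.14 in vehicle and 7.28, 7.52, 7.62, 7.67 and 7.76 combined, without overlap, and rose by 0.58 (SE 0.15, adjusted p = 0.0108, limma). TIMP2 rose by 0.46 (SE 0.13) and DCN fell by 0.88 (SE 0.30), with overlapping arrays. The TIMP2 call ended without vehicle array 1 or 3 or combined array 3 or 6, and the DCN call without vehicle array 1, 3, 4 or 6 or combined array 1, 2, 3 or 4, without the arrays that stood apart (adjusted p = 0.117, limma), or with the filter at log2 3 or none, so that the count fell to 2 without vehicle array 3 or combined array 3. KRT5, KRT19, KRT8 and KRT18, which mark the epithelial state, also fell in this comparison (-1.58, -1.14, -0.50 and -0.35), as did TWIST1 and S100A4 (-0.65 each). Their part in these results was not tested.

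Set against each drug alone in HB4a, the combination differed from doxorubicin in 0 of 26 matrix genes (limma, 2.58% of all genes, with 5 of the 26 at an unadjusted p under 0.05) and from rapamycin in 1 lower (8.84% of all genes). That gene was COL8A1, at 5.50, 3.91, 3.93, 4.29 and 4.93 combined, a difference of -1.20 from rapamycin (SE 0.36, adjusted p = 0.0395, limma). It lay between the doxorubicin and rapamycin means of 3.94 and 5.71. The call ended without rapamycin array 1, 3 or 6 or combined array 2, 3, 4 or 6, and without a filter. COL8A1 passed the filter in HB4a only through the rapamycin arrays, so the direction of this call is not read. No matrix gene departed from the sum of the single effects in HB4a, C5.2 or SKBR3 (limma, 0.0% of all genes in each line, and 0 matrix genes at an unadjusted p under 0.05).

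In C5.2, COL7A1 and COL27A1 were the matrix genes called with doxorubicin, of 31 tested (limma, 3.26% of all 6292 genes tested were called, and 5 of the 31 had an unadjusted p under 0.05). The median was 0.11 over the 31 and 0.02 over all genes. Both genes passed the filter only through arrays that received doxorubicin, so a lower value could not have been called and the direction of the count is not read. Tested without any filter they had adjusted p = 0.0175 (COL7A1) and 0.0108 (COL27A1) (limma). COL7A1, the collagen of the anchoring fibrils that tie epithelium to stroma, was 3.34, 3.72, 4.24, 4.29 and 4.13 in vehicle and 4.70, 4.27, 5.63, 5.57 and 5.25 with doxorubicin. Only doxorubicin array 2 reached into the vehicle range. COL7A1 rose by 1.14 (SE 0.26, adjusted p = 0.0175, limma). COL27A1, a fibrillar collagen of developing cartilage, was 4.0, 4.27, 4.30, 4.28 and 4.37 in vehicle and 5.16, 4.40, 5.15, 5.10 and 5.19 with doxorubicin, without overlap, and rose by 0.75 (SE 0.16, adjusted p = 0.00943, limma). The upstream stretches of both are printed above, with their GC boxes in capitals.

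Both calls sat near the lower limit of what was tested. The COL7A1 call ended without vehicle array 1 or doxorubicin array 3 or 6 (adjusted p up to 0.0649, limma), and without doxorubicin array 1, 3, 4 or 6 COL27A1 no longer passed the filter, so the count was 1 without vehicle array 1 or doxorubicin array 1 or 4 and 0 without doxorubicin array 3 or 6. These numbers paired the arrays, and with the block 6 were higher and 3 lower (17.4% of all genes). That fit added TIMP3 and COL6A1 at 0.28, BGN at 0.33 and PLOD3 at 0.21 as higher, and DCN at -0.60, MGP at -0.57 and SPARC at -0.28 as lower. MGP was 5.43, 4.76, 7.36, 7.19 and 7.07 with doxorubicin, below the vehicle array of the same number in 5 of 5 numbers.

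Rapamycin in C5.2 called 1 of 31 matrix genes, lower (limma, 17.4% of all genes were called). The median was -0.05 over the 31 and -0.08 over all genes. PLOD1 was 6.02, 6.52, 6.56, 6.39 and 6.66 in vehicle and 6.01, 5.97, 6.23, 5.94 and 6.03 with rapamycin, with overlap only at vehicle array 1. PLOD1 fell by 0.39 (SE 0.12, adjusted p = 0.0270, limma). The call ended without a filter, under quantile normalization, without the arrays that stood apart, and without vehicle array 2, 3 or 6 or rapamycin array 1 or 4, and without vehicle array 1 the count was 2. With the block 3 were higher and 5 lower (44.2% of all genes): MGP, COL4A1 at 0.37 and COL4A2 at 0.34 were higher, and DCN at -0.58, PLOD1, COL3A1 at -0.32, COL4A6 at -0.31 and SPARC at -0.16 lower. Without pairing the markers KRT5 (-0.97), KRT19 (-1.06) and S100A4 (-0.48) fell and FN1 (0.69) rose, and their part was not tested.

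MGP shows how far the experiment number set the spread. With rapamycin it was 7.27, 6.64, 9.17, 8.80 and 8.57, against 6.04, 5.43, 7.73, 7.62 and 7.83 in vehicle. The groups overlapped widely and arrays 1 and 2 were low in both, but the rapamycin array was higher in each of the 5 numbers. The difference was 1.16 in both fits, with SE 0.66 and adjusted p = 0.24 without the block and SE 0.09 and adjusted p = 1.04e-07 with it (limma). COL4A1 and COL4A2, which share the printed upstream stretch, were higher together in the paired fit, and neither was called without the block. COL4A1 was 5.94, 5.91, 6.68, 6.72 and 6.69 in vehicle and 6.88, 6.11, 6.96, 7.03 and 6.80 with rapamycin.

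**Figure D4:**
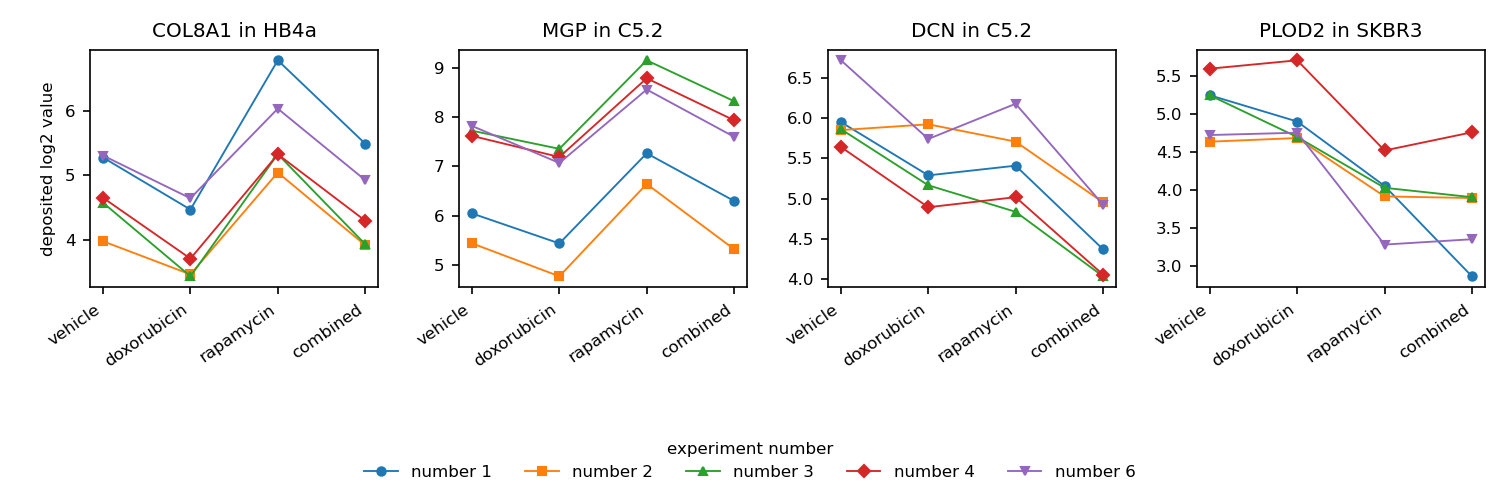
Deposited log2 values (y axis) of COL8A1 in HB4a, MGP and DCN in C5.2 and PLOD2 in SKBR3 under the 4 conditions (x axis), with a line for each of the 5 experiment numbers. The lines for MGP run nearly parallel, each rising with rapamycin, while numbers 1 and 2 lie below 3, 4 and 6, and the lines for COL8A1 fall with doxorubicin and rise with rapamycin.

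The combined treatment changed the most matrix genes in C5.2, with 2 higher and 5 lower of 31 (limma, 21.0% of all genes were called). The median was -0.02 over the 31 and -0.06 over all genes. DCN was 5.95, 5.85, 5.86, 5.64 and 6.72 in vehicle and 4.37, 4.95, 4.03, 4.06 and 4.93 combined. No combined array reached the vehicle range. DCN fell by 1.54 (SE 0.27, adjusted p = 0.000521, limma), and it was also lower than with doxorubicin alone (-0.93, SE 0.27) and than with rapamycin alone (-0.96, SE 0.27). COL3A1 (-0.53, SE 0.15), SPARC (-0.47, SE 0.13), COL4A6 (-0.40, SE 0.13) and LOXL2 (-0.36, SE 0.12) also fell. COL3A1 was 10.53, 9.88, 10.73, 10.55 and 10.20 combined, and array 3 was the 1 combined array that reached the vehicle range of 10.58 to 11.18.

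COL7A1 and COL27A1, which passed the filter only through arrays with doxorubicin, were also called with the combination, and without a filter both had adjusted p = 0.00782 (limma). COL7A1 was 5.06, 4.52, 5.63, 5.32 and 4.65, all above the vehicle arrays, and rose by 1.09 (SE 0.26, adjusted p = 0.00556, limma). COL27A1 was 5.26, 4.77, 4.93, 4.94 and 4.68, also without overlap, and rose by 0.67 (SE 0.16, adjusted p = 0.00500, limma). The calls of DCN, COL7A1, COL3A1 and SPARC held whichever of the 10 arrays was left out, and COL27A1 no longer passed the filter without combined array 1. The COL4A6 call ended without vehicle array 3, 4 or 6 or combined array 2, 4 or 6, and the LOXL2 call without vehicle array 2, 3, 4 or 6 or combined array 3, 4 or 6. Both also ended without a filter, and that of LOXL2 under quantile normalization. The epithelial markers KRT5, KRT19, KRT8 and KRT18 fell in the same comparison (-1.94, -1.87, -0.75 and -0.60), as did S100A4 (-0.65) and TWIST1 (-0.54). Their part was not tested.

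Against doxorubicin alone the combination in C5.2 lowered 3 matrix genes and raised 0 (limma, 13.5% of all genes): DCN, COL4A6 at -0.50 (SE 0.13) and COL3A1 at -0.47 (SE 0.15). Against rapamycin alone 1 was higher and 1 lower (6.39% of all genes), namely COL27A1 at 0.54 (SE 0.16) and DCN. Without doxorubicin array 6 none of the former 3 was called, and 1 was called without combined array 4. The COL3A1 call ended also without doxorubicin array 1, 3 or 4 or combined array 2, 4 or 6, and the DCN call without doxorubicin array 2 or combined array 3 or 4. The DCN call also ended under quantile normalization (adjusted p = 0.0639, limma), and the COL3A1 call with the filter at log2 3 (0.0516) and with the mean of all probe sets (0.104). Against rapamycin the count was 0 to 3: it was 0 without rapamycin array 2 or 6 or combined array 1, 3 or 4, 1 without rapamycin array 1, 3 or 4, and 3 without combined array 2. The calls of DCN, COL3A1 and COL27A1 in both contrasts ended without a filter. Both contrasts paired by number. With the block 1 was higher and 11 lower against doxorubicin (38.0% of all genes), and 3 were higher and 4 lower against rapamycin (22.2% of all genes). MGP differed by 0.74 from doxorubicin and by -0.99 from rapamycin there (SE 0.09 for both), and MMP2 by -0.47 and -0.42.

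**Figure D5:**
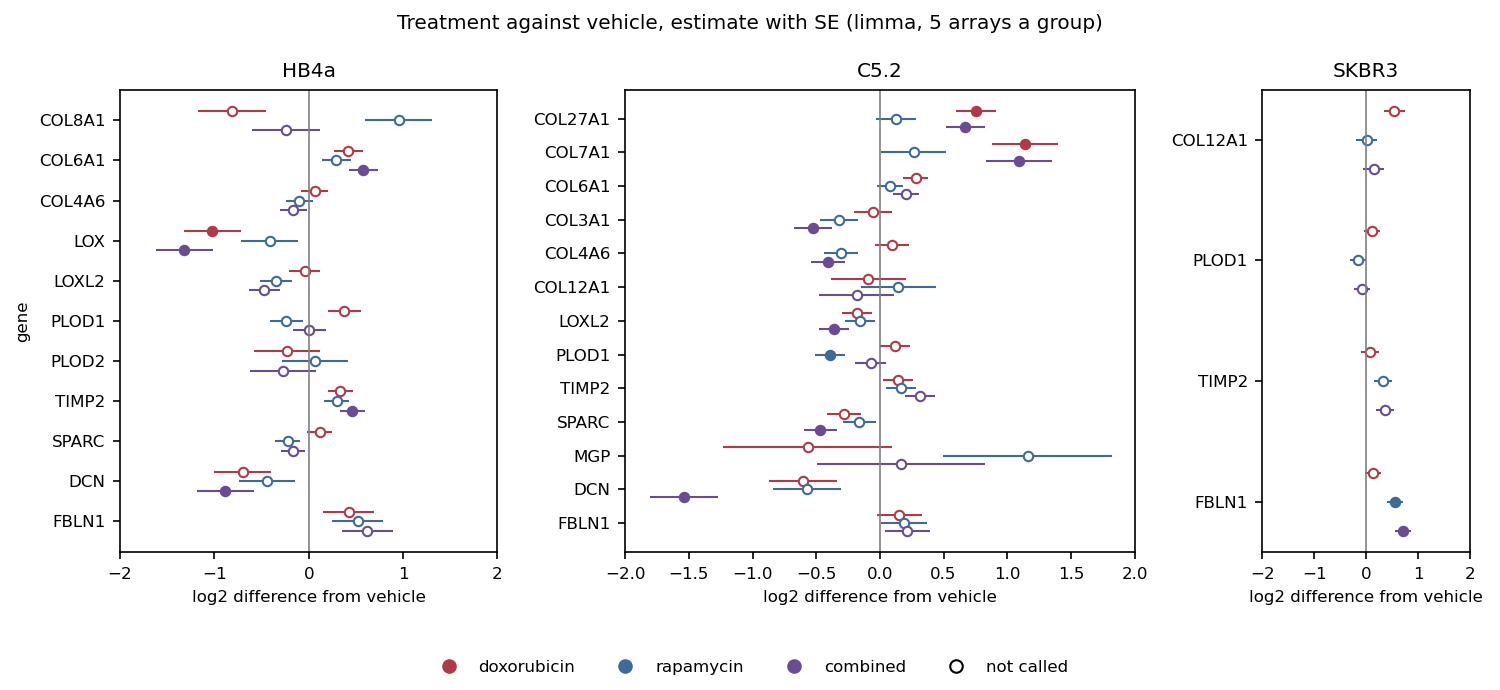
Differences from vehicle on the log2 scale (x axis, points) with their standard errors (bars) for matrix genes tested in HB4a, C5.2 and SKBR3, from limma without pairing. Filled points are called and open points are not: LOX and DCN lie left of 0, COL7A1 and COL27A1 right of 0 with doxorubicin and combined in C5.2, and FBLN1 right of 0 with rapamycin and combined in SKBR3.

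SKBR3 had 7 matrix genes to test, and FBLN1 was the 1 called without pairing. Doxorubicin called 0 of 7 (limma, 0.837% of all 5977 genes, with 1 at an unadjusted p under 0.05), and rapamycin and the combination each called FBLN1 higher (18.3% and 22.0% of all genes). FBLN1 was 6.34, 7.0, 6.97, 7.0 and 6.78 in vehicle, 7.11, 7.38, 7.57, 7.47 and 7.34 with rapamycin and 7.12, 7.65, 7.79, 7.43 and 7.64 combined. Neither treated group overlapped vehicle. FBLN1 rose by 0.55 with rapamycin (SE 0.16, adjusted p = 0.0164, limma) and by 0.71 combined (SE 0.16, adjusted p = 0.00320, limma), and it was 0.57 above doxorubicin alone (22.0% of all genes were called there). The rapamycin call ended without vehicle array 1 (adjusted p = 0.0540, limma), the array with the lowest FBLN1 value, and without vehicle array 3 the count was 2. FBLN1 has 5 probe sets, and their mean did not pass the filter, so it gave no call. The combination differed from rapamycin in 0 of 7 (limma, 0.552% of all genes, 0 at an unadjusted p under 0.05). KRT19 was the 1 marker called in SKBR3, with the combination (-0.16), and its part was not tested.

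These SKBR3 comparisons paired by number. With the block, COL12A1 was the 1 gene higher with doxorubicin, by 0.54 (SE 0.12, adjusted p = 0.00643, limma, 5.0% of all genes). It was 4.94, 4.93, 5.21, 5.53 and 5.14 in vehicle and 5.2, 5.67, 5.57, 6.11 and 5.88 with doxorubicin. Rapamycin had 3 higher (41.8% of all genes), FBLN1, TIMP2 at 0.32 and TIMP1 at 0.29, and the combination 2 higher (50.5%), FBLN1 and TIMP2 at 0.36. Against doxorubicin alone the combination had 2 higher, FBLN1 and TIMP2, and 1 lower, COL12A1 at -0.39 (49.6% of all genes). TIMP2 was 7.92, 8.70, 8.70, 8.59 and 8.43 in vehicle and 8.58, 9.02, 8.85, 8.77 and 8.72 with rapamycin, higher in 5 of 5 numbers.

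Several SKBR3 genes of interest lay under the filter, and were tested only with the filter at log2 3. COL16A1, a fibril-associated collagen, was 3.51, 3.68, 3.53, 3.65 and 3.34 in vehicle and 4.09, 4.39, 4.32, 4.52 and 4.49 with doxorubicin, without overlap. It was higher with doxorubicin by 0.82 (SE 0.12, adjusted p = 0.000358, limma, 0.907% of all genes in that fit). With rapamycin it was 2.85, 3.23, 3.25, 2.96 and 3.31, all under the vehicle arrays (-0.42, SE 0.12), and the combined arrays, at 3.35 to 3.76, overlapped vehicle. PLOD2 was 5.25, 4.64, 5.25, 5.60 and 4.73 in vehicle, 4.06, 3.92, 4.03, 4.52 and 3.29 with rapamycin and 2.87, 3.90, 3.91, 4.76 and 3.36 combined. The rapamycin arrays all lay below vehicle, and among the combined arrays only array 4 reached the vehicle range. PLOD2 was lower by 1.13 with rapamycin (SE 0.29, adjusted p = 0.0123, limma, 13.3% of all genes) and combined (-1.33, SE 0.29, adjusted p = 0.00371, limma, 17.4% of all genes). MMP9 was lower by 0.61 with rapamycin (SE 0.16). In HB4a the same filter called COL7A1 higher by 0.81 with doxorubicin and 0.86 combined (9.15% and 14.6% of all genes), and COL27A1 higher by 0.99 combined. HB4a COL7A1 was 3.98, 3.85, 3.5, 3.82 and 3.92 in vehicle and 4.11, 5.13, 4.38, 4.54 and 4.94 with doxorubicin, without overlap.

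Responses were then compared between lines by the interaction term. Between C5.2 and HB4a, 0 of 37 matrix genes differed in their response to doxorubicin, rapamycin or the combination (limma, with 0.101%, 0.0% and 0.373% of all genes called and 3, 0 and 2 of the 37 at an unadjusted p under 0.05). The first 2 of these contrasts paired by number. With the block SPARC (-0.40) and LOX (0.83) differed in the doxorubicin response (1.97% of all genes) and MGP (1.16, SE 0.18, adjusted p = 0.000467, limma) in the rapamycin response (2.53% of all genes). LOX and MGP are at background or near it in 1 of the lines, which limits what could differ there. So the rise of COL7A1 and COL27A1 with doxorubicin, called in C5.2, was not shown to differ from that in HB4a.

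Between SKBR3 and HB4a, 0 of 28 matrix genes differed in the response to doxorubicin and 0 in that to rapamycin (limma, 3.87% and 5.03% of all genes were called, with 4 and 5 of the 28 at an unadjusted p under 0.05). In the response to the combination 2 differed, 1 in each direction (9.82% of all genes). These were LOX, at 1.27 (adjusted p = 0.0165, limma), and COL6A1, at -0.87 (adjusted p = 0.0117, limma), and in both SKBR3 was at background under all conditions. COL6A1 was 1.28 in SKBR3 vehicle, with array 3 at 2.04, and 0.98 combined. The doxorubicin contrast paired by number and with the block 2 were higher and 3 lower (15.9% of all genes): COL8A1 and LOX, both at background in SKBR3, and COL6A1, TIMP3 and MMP14. Without HB4a doxorubicin array 1 or SKBR3 vehicle array 1 the doxorubicin count was 1, and without SKBR3 rapamycin array 6 the rapamycin count was 1.

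Genes around the collagens were read from lists of collagen folding and processing, collagen receptors and the TGF-beta pathway, a main inducer of matrix genes. All counts are from limma without pairing. Of 14 folding and processing genes tested, 6 were higher and 4 lower in C5.2 than in HB4a (49.2% of all genes). P3H3, a prolyl 3-hydroxylase, was at least 3.13 higher, PCOLCE, which enhances procollagen cleavage, 2.41 higher, and CRTAP, a partner of prolyl 3-hydroxylase, 1.19 higher, while BMP1, the procollagen C-proteinase, was lower (-0.95). In SKBR3, 2 of 12 were higher and 7 lower than in HB4a (77.3% of all genes), with P4HA1, a prolyl 4-hydroxylase, 2.41 higher and P3H2 at least 3.38 lower. Among TGF-beta genes 5 of 13 were higher and 2 lower in C5.2, including TGFBR3 at 1.51 and TGFBI at -1.16, and 4 of 12 were higher and 6 lower in SKBR3, including TGFB3 at 3.82 and TGFBI at -4.84. ITGB1 and MRC2, which bind collagen, were 1.87 and 1.64 higher in C5.2, 2 of 3 receptors tested, and MRC2 was lower in SKBR3 (-1.27).

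With doxorubicin 3 of 12 folding and processing genes were higher and 0 lower in HB4a (11.4% of all genes), and 3 of 13 higher and 1 lower in C5.2 (3.26% of all genes). P3H2 was higher in both, by 1.41 and 0.76, as were CRTAP, by 0.39 and 0.27, and P4HA2, by 0.39 and 0.33. P4HA2, a prolyl 4-hydroxylase, was lower with rapamycin in HB4a (-0.41) and in C5.2 (-0.33). Of the 13 in C5.2, 1 was higher and 2 lower with rapamycin (17.4% of all genes) and 1 higher and 1 lower combined (21.0%). TGFB2, a TGF-beta ligand, was 1.52 higher with rapamycin in C5.2, where 2 of 11 pathway genes were higher. In SKBR3 TGFBR1, a receptor of that pathway, was lower with rapamycin (-0.94) and combined (-1.29), the 1 gene of 6 called in each (18.3% and 22.0% of all genes), and TGFB3 was the 1 called with doxorubicin (-0.51, 0.837% of all genes). MRC2 was 0.42 higher combined in HB4a and in C5.2.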

How the data were processed

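RNA of 60 cultures was measured on Affymetrix U133 Plus 2 arrays. The authors deposited log2 values per probe set, made with RMA per the submitters' processing notes; whether all arrays were normalized together, and the genome build, are not given in the sources used here. Replicates are 5 independent experiments per group, per the labels' protocols. Of 54675 probe sets, 41091 had 1 gene symbol, 1801 several and 11777 none, and 6 were controls; those with 1 symbol gave 19775 genes, each read from the probe set with the highest mean over all arrays. RMA values carry no counts, so depth is not defined, and the number of arrays limits precision.

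Genes above a log2 value of 5 on at least 5 arrays of a fit were tested with limma 3.58.1 (lmFit and eBayes with a trend, 2-sided, R 4.3.3): treatments in the 20 arrays of a line, lines and responses in the 40 of both lines. A gene was called at an adjusted p under 0.05, with the Benjamini-Hochberg method run over every gene of the fit. Where a group was at background for a gene (at least 2 arrays at or under their array's median), the difference is given as "at least" against the array medians, on the log2 scale. Experiment numbers were taken to pair the arrays of a comparison where every same-numbered pair's residuals over all genes correlated above 0.1. This held for 15 of the 24 comparisons other than the departures, with lowest correlations from 0.105 to 0.509. It failed for combined against vehicle in HB4a (lowest correlation -0.536) and C5.2 (-0.100). The alternatives tried were testing every gene, filtering at 3 in place of 5, averaging a gene's probe sets, quantile normalization, experiment number as a block, leaving out arrays that stood apart, and leaving out each array. The computations were tested on simulated data, and figures were drawn with matplotlib 3.10.9.

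The genes and lists were chosen with earlier results of these data known. All genes are accounted for, and those named with full statistics in a comparison are up to 5 rises and 5 falls among those called, up to 2 of each role with the highest level, and a list of collagens, metalloproteinases, TIMPs, enzymes and other matrix genes; lists around the collagens give up to 3 in each direction. Values singled out beyond these were chosen after they were seen.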

Additional observations from a re-analysis of the deposited data

Results flagged for a closer look

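For 29 genes in the 12 groups, 295 sets of 5 values, each of 1 gene in 1 group, were checked. The highest or lowest array was set against the other 4, and 21 values stood further from the nearest other than Dixon's 95% critical value allows. Chance alone gives about 1 in 20 for a single set. The sets share arrays and are not independent, so the 21 are not weighed against that rate.

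Several lay on arrays 1 and 2 of C5.2. In vehicle, array 1 was lowest for BGN at 5.65 (others 6.43 to 6.75), COL27A1 at 4.0 (4.27 to 4.37), LOXL2 at 6.46 (6.90 to 7.03) and TIMP2 at 8.50 (8.87 to 8.97). Array 2 was lowest for COL27A1 with doxorubicin at 4.40 (5.10 to 5.19), SPARC with doxorubicin at 8.63 (9.0 to 9.10), COL4A1 with rapamycin at 6.11 (6.80 to 7.03) and COL4A2 combined at 8.16 (8.36 to 8.40). Elsewhere in C5.2, DCN was highest on vehicle array 6 at 6.72 (5.64 to 5.95), and COL6A1 was highest on doxorubicin array 3 at 8.25 (7.94 to 8.02) and lowest on rapamycin array 6 at 7.69 (7.86 to 7.88).

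In HB4a, COL3A1 was highest on doxorubicin array 6 at 2.65 (1.93 to 2.09), MMP2 lowest on rapamycin array 1 at 2.48 (3.06 to 3.20), MMP7 lowest on vehicle array 2 at 5.09 (5.25 to 5.28), PLOD1 lowest on rapamycin array 1 at 5.41 (5.99 to 6.19) and TIMP3 highest on rapamycin array 2 at 5.76 (5.03 to 5.17).

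In SKBR3, vehicle array 3 was highest for SPARC at 3.46 (0.15 to 0.54) and NID1 at 2.30 (-0.13 to 0.24). PLOD1 was lowest on doxorubicin array 1 at 5.42 (5.84 to 5.99), TIMP2 lowest on combined array 1 at 8.33 (8.85 to 9.06) and PLOD2 highest on doxorubicin array 4 at 5.71 (4.69 to 4.91).

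The combined response differed between SKBR3 and HB4a by an interaction term for COL6A1 (-0.87, adjusted p = 0.0117, limma) and LOX (1.27, adjusted p = 0.0165, limma). SKBR3 was at background for both genes.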

How the results depend on the processing

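None of the 51 called differences of named genes changed direction under any alternative in which it was tested. With the mean of all probe sets 21 stayed called and 1 did not, and the rest did not pass the filter. The cause of the changes below was not tested, except that another filter changes which genes are tested. Unless stated, the values are counts of matrix genes called (limma). Most stand without the share of all genes called, so they are not read as results about the matrix genes.

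The experiment number as a replicate block raised the count of genes called from 1 to 13 for doxorubicin, 0 to 8 for rapamycin and 4 to 10 combined in HB4a, from 2 to 9, 1 to 8 and 7 to 16 in C5.2, and from 0 to 1, 1 to 3 and 1 to 2 in SKBR3. Combined against doxorubicin went from 0 to 7 in HB4a, 3 to 12 in C5.2 and 1 to 3 in SKBR3, and combined against rapamycin from 1 to 6 in HB4a and 2 to 7 in C5.2. Response differences between C5.2 and HB4a went from 0 to 2, 1 and 3 for doxorubicin, rapamycin and combined, and between SKBR3 and HB4a from 0 to 5, 0 to 5 and 2 to 6. For the other 7 of 27 comparisons the count stayed within 1.5 times, and all 51 called values of named genes stayed called. Over all genes tested, the block raised the number called from 705 to 2014 for doxorubicin, 196 to 1008 for rapamycin and 1074 to 2307 combined in HB4a. In C5.2 that number went from 205 to 1093, 1097 to 2781 and 1320 to 2722, and in SKBR3 from 50 to 299, 1095 to 2497 and 1313 to 3020. Numbers did not pair the arrays for combined in HB4a or C5.2 against vehicle, combined against a drug alone in HB4a, SKBR3 against the other lines, or the rapamycin and combined responses of SKBR3 and the combined response of C5.2. Of 60 arrays 52 resembled their own number most; HB4a combined array 3 resembled number 2 (mean r 0.785, own -0.317) and array 2 number 3 (0.584, own -0.248), a hint from the data and not from the design.

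With no filter the count was 4 for doxorubicin and 8 combined in HB4a, 0 for rapamycin in C5.2, 1, 5 and 4 in SKBR3, 1 and 0 for combined against doxorubicin and rapamycin in C5.2, 6 for combined against doxorubicin in SKBR3, 54 and 51 for SKBR3 against HB4a and C5.2, and 1, 1 and 5 for the responses of SKBR3 against HB4a. With the filter at log2 3 it was 2 for doxorubicin in HB4a, 1, 4 and 2 in SKBR3, 2 for combined against rapamycin in HB4a, 4 for combined against doxorubicin in SKBR3, 40 for SKBR3 against HB4a and 1 for its doxorubicin response. With the mean of all probe sets it was 2 for doxorubicin and 2 combined in HB4a, 1 and 4 in C5.2, 0 and 0 for rapamycin and combined in SKBR3, 0 and 1 for combined against doxorubicin and rapamycin in C5.2, 0 for combined against doxorubicin in SKBR3, 15, 14 and 15 for C5.2 against HB4a and SKBR3 against HB4a and C5.2, and 2 and 1 for the doxorubicin and combined responses of SKBR3. Quantile normalization gave 2 for doxorubicin in HB4a and 1 and 0 for doxorubicin and rapamycin in C5.2. Without the arrays that stood apart it was 8 for doxorubicin in HB4a, 0 for rapamycin in C5.2, 2 combined in SKBR3, 1 and 0 for combined against doxorubicin and rapamycin in HB4a, and 1 and 1 for the doxorubicin and rapamycin responses of SKBR3.

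Leaving out each array gave 0 to 4, 0 to 0 and 2 to 4 in HB4a, 0 to 2, 0 to 2 and 5 to 8 in C5.2, and 0 to 0, 0 to 2 and 1 to 1 in SKBR3. It gave 0 to 1 for combined against rapamycin in HB4a, 0 to 3 for both contrasts of combined with a drug in C5.2, 1 to 2 for combined against doxorubicin in SKBR3, 26 to 27, 26 to 26 and 30 to 32 between lines, and 0 to 1, 0 to 1 and 2 to 3 for the responses of SKBR3. Quantile normalization moved the median of all genes from -0.12 to -0.03 for the combined response and from -0.11 to -0.02 for the rapamycin response of C5.2. Signal over background limits SKBR3, where 48 of the 88 genes lay at background in all 4 groups.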
